A study of Mus musculus with 12 samples.

Results

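Transcript abundance in B16 cells, a mouse melanoma line, was compared between cells carrying a lentiviral shRNA against Elp3 (shElp3, the construct labelled sh309) and cells carrying a lentiviral control shRNA without a relevant target (shControl, labelled shCTL). The comparison used the 6 total RNA libraries of a ribosome profiling study of 12 libraries, 3 per shRNA, lettered A, B and C. The cells grew in DMEM with serum and had no other treatment in the labels. Both groups therefore carry a lentiviral shRNA, and they differ in which one. A single shRNA stands for the knockdown. Nothing in the labels says that the letters were separate transductions or cultures, so every p-value measures the spread between these libraries. In fits that take out differences between letters, it is the spread that remains. The members are all 12274 genes, of 24421 in the table, that passed a filter on low counts, and the measure is abundance of RNA, not its translation.

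Elp3 is the enzyme subunit of Elongator, which starts the modification of the wobble uridine in a set of tRNAs. Its loss is known to act on decoding by the ribosome. A total RNA library sees only what follows in transcript levels. Many genes of cell division share promoter elements: genes used in G2 and mitosis often carry a CHR element (TTTGAA) beside CCAAT boxes, which bind the factor NF-Y, and genes used in DNA replication often carry E2F sites. Genes of cholesterol synthesis and uptake answer to the SREBP factors through sterol response elements.

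Promoter stretches of 5 genes are shown because each holds one of these elements and because the genes were called lower and belong to groups described below. They do not show how common an element is in a group. They are the 150 bases (Hmgcs1, 250 bases) that end just before the transcription start, 5′ to 3′ in the direction of the gene, from RefSeq on GRCm38.p6. Capitals mark the CHR-type element TTTGAA, the NF-Y box CCAAT, the E2F-type elements TTTCCCGC and TTTGGCGC, and the sterol element TCACNCCAC. Each was searched on both strands, so a capital run may show the reverse complement.
Cdc20: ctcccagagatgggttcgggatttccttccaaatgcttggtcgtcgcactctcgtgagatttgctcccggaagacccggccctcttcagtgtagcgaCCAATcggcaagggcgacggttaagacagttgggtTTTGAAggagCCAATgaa
Cdk1: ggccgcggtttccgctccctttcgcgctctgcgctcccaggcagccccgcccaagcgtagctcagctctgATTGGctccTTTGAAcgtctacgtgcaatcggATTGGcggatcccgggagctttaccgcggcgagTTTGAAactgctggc
Ccnb2: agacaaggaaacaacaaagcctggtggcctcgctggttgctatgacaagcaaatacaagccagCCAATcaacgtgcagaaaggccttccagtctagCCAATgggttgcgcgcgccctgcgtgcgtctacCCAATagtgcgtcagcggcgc
Mcm6: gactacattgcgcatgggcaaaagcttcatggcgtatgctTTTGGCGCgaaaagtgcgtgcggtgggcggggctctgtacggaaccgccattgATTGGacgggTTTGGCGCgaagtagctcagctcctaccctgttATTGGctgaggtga
Hmgcs1: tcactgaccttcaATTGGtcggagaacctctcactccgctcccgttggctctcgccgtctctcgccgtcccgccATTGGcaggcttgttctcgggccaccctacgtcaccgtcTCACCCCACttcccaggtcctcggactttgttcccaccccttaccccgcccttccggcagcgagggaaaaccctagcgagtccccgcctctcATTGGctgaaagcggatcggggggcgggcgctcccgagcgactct
The stretch of Cdc20 lies at chr4:118437344-118437493 on the minus strand, with TTTGAA from 18 to 13 bases before the start and CCAAT at 53 to 49 and at 8 to 4 bases. That of Cdk1 lies at chr10:69352913-69353062 on the minus strand and holds TTTGAA at 71 to 66 and at 15 to 10 bases before the start, with CCAAT read on the other strand at 80 to 76 and 48 to 44 bases. Ccnb2 (chr9:70421555-70421704, minus strand) holds CCAAT at 87 to 83, 54 to 50 and 21 to 17 bases before the start, with no TTTGAA in the stretch. Mcm6 (chr1:128359706-128359855, minus strand) holds TTTGGCGC at 110 to 103 and 47 to 40 bases before the start, and CCAAT on the other strand at 57 to 53 and 14 to 10 bases. Hmgcs1 (chr13:119690101-119690350, plus strand) holds the sterol element at 137 to 129 bases before the start and CCAAT, on the other strand, at 3 places.

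The libraries held 7914369 to 16527864 counted reads, and 93.4 to 96.3% of them fell in protein-coding genes. Levels are CPM, counts scaled to a common library size with TMM factors, and are listed in the order A, B, C. The letter A libraries stood apart: their weights in a limma voom fit that estimates sample quality were 0.127 (shControl A) and 0.299 (shElp3 A), against 1.61 to 3.31 in the other 4. The log2 differences between the shRNAs correlated across genes at Pearson's r of 0.492 between letters A and B, 0.522 between A and C and 0.642 between B and C. Genes are not independent replicates, so these values are a description. Results are given with and without the letter as a block, and with letters B and C only where that moves them. Melanocyte markers summed to 9030 to 12100 CPM in shControl and 6070 to 7640 CPM in shElp3, with 8 of 8 markers detected. Leukocyte markers summed to 7.97 to 22.6 against 6.63 to 12.5 CPM, with Ptprc, Adgre1, Aif1 and Ms4a1 at 0, endothelial markers to 4.25 to 8.21 against 4.86 to 10.6 CPM, with Kdr and Cldn5 at 0, and epithelial markers to 0.394 CPM or less.

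The targeted gene had 93.9, 72.1 and 70.0 CPM in shControl and 41.3, 35.3 and 35.4 CPM in shElp3. The groups did not overlap. Elp3 (14: 65530446 to 65593112) kept 47.5% of its control level, a log2 fold change of -1.08 (SE 0.22). Its adjusted p was 0.0831 in edgeR's quasi-likelihood test over all 6 libraries, which misses the threshold of 0.05, and 0.000977 with the letter as a block. The 5 other Elongator subunits tested were not called with either fit, among them Elp4 (log2 fold change 0.23), Elp5 (0.13) and Elp6 (-0.21).

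**Figure D1:**
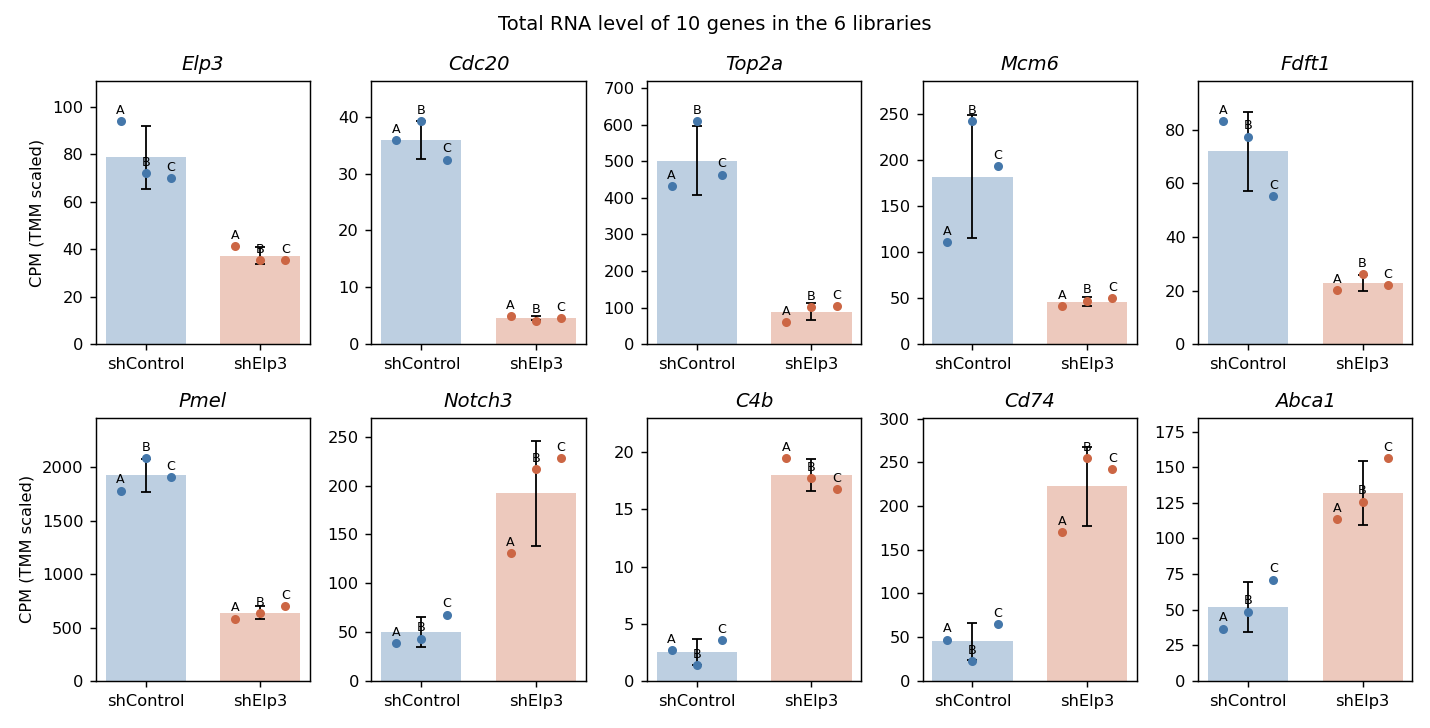
Total RNA level in CPM, TMM scaled (vertical axes from 0), of 10 genes in the 3 shControl (blue) and 3 shElp3 (orange) libraries; points are libraries marked with their letter, bars are means and whiskers 1 SD. Cdc20, Top2a, Mcm6, Fdft1 and Pmel lie lower in every shElp3 library than in any shControl library, as does Elp3, and Notch3, C4b, Cd74 and Abca1 lie higher.

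A gene is called below where the Benjamini-Hochberg adjusted p of edgeR's quasi-likelihood test over all 12274 genes is under 0.05. Without a block 140 genes were called, which is 1.14% of those tested. Of these 27 were higher (0.22%) and 113 lower (0.921%) in shElp3. In this fit the decreases were mostly those of 1 kind of gene: 87 of the 113 belong to 16 lists of cell division genes. Those lists hold 358 tested genes. Of the remaining decreases 3 belong to sterol and fatty acid lists, 2 to other lists and 21 to none. Of the 27 increases 0 belong to a cell division or sterol list, 7 to other lists and 20 to none. Each of the 140 genes had the same direction within letters A, B and C, as did 49% of all genes tested. None of the 140 had overlapping groups, where 10.2% of all genes were higher and 9.56% lower with no overlap. The 140 were called from these same libraries, so neither trait is separate support for the calls.

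With the letter as a block 1499 genes were called (12.2%), 670 higher (5.46%) and 829 lower (6.75%), and the 140 were all among them. In that fit 254 of the 358 cell division genes were called lower and 0 higher. Those 254 were 30.6% of the 829 decreases, and 507 of the 829 belong to no list. DESeq2 without a block called 652 (5.31%), 231 higher (1.88%) and 421 lower (3.43%), and 216 of the 421 were in the cell division lists. A fit of letters B and C alone called 2377 (19.4%), 1090 higher (8.88%) and 1287 lower (10.5%), and leaving out shControl A gave 540 (4.35%), 167 higher (1.35%) and 373 lower (3.01%). Without any other single library edgeR called 0 genes, with 947 to 1376 genes at an unadjusted p under 0.05 and 230 to 368 called by DESeq2. The 140 genes kept their direction in each of those fits, and the median log2 fold change of the 113 stayed between -2.31 and -2.09 (-2.20 over all 6 libraries). Cdc20, for example, was at -3.04 to -2.90 with adjusted p-values of 0.002 (without shControl A) to 0.15 in edgeR. So when a library other than shControl A was left out, the 140 genes lost their calls but kept their direction. The 140 were called over all 6 libraries and those fits reuse most of them, so this stability is no separate support. At an unadjusted p under 0.05, the share over all genes in the fit without a block was 5.9% higher and 6.48% lower, against which the counts given for single lists can be read. Counts of single lists with the block can be read against 5.46% higher and 6.75% lower.

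**Figure D2:**
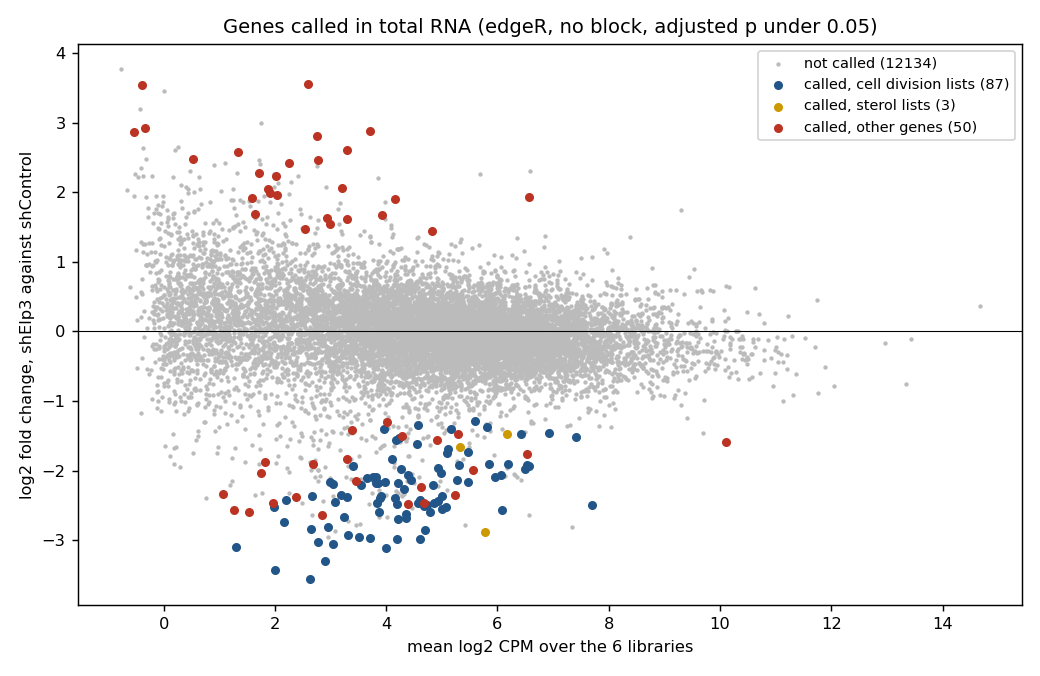
Log2 fold change of shElp3 against shControl (vertical axis) against mean log2 CPM over the 6 libraries (horizontal axis) for the 12274 genes tested; coloured points are the 140 genes called by edgeR without a block. The 87 called genes of the cell division lists and the 3 of the sterol lists lie below 0, and the called genes above 0 are all in other lists or in none.

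Genes that drive entry into mitosis were lower. In bulk RNA, fewer cells in a phase of the cycle and less RNA per cell cannot be told apart. Of 12 mitotic cyclins, CDK1 and its regulators 5 were called lower, 11 with the letter block, and all 12 with letters B and C, with a median log2 fold change of -2.04 where that of all genes was -0.02. Cdk1, the kinase that mitotic cyclins activate, had 135, 111 and 88.4 CPM in shControl and 33.0, 27.6 and 29.2 CPM in shElp3. Cyclin Ccnb2, a partner of CDK1, was at 72.2, 80.6 and 57.4 CPM against 8.34, 7.84 and 12.8 CPM. Neither gene had overlapping groups. The log2 fold changes were -1.90 (SE 0.24, edgeR adjusted p = 0.0196) for Cdk1 and -2.86 (SE 0.29, adjusted p = 0.0159) for Ccnb2. Cdc25c, a phosphatase that activates CDK1, kept 12.3% of its control level, and cyclin Ccna2 kept 12.6%. Its relative Cdc25b was at 31.2, 80.1 and 68.4 CPM against 6.78, 13.7 and 13.8 CPM. The groups of Cdc25b did not overlap, but the A libraries were low in both, and it was called with the letter block (log2 fold change -2.35, adjusted p = 3.07e-06) and not without it (-2.40, 0.0613).

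Of 15 mitotic kinases 8 were called lower, and 12 with the block, with a median of -2.12. The aurora kinase Aurkb, of the chromosomal passenger complex, had 62.1, 85.6 and 60.0 CPM in shControl against 9.42, 14.3 and 13.8 CPM in shElp3, a log2 fold change of -2.47 with an SE of 0.28 (adjusted p = 0.0159 in edgeR). The centrosomal kinase Nek2 changed by -2.48 and the checkpoint kinases Bub1b and Bub1 by -1.92 and -2.43, with no overlap in any of them. Plk1, the polo-like kinase, differed between letters as well as between shRNAs. Its levels were 10.6, 47.1 and 40.2 CPM in shControl and 1.98, 5.82 and 6.55 CPM in shElp3, so that the groups did not overlap while the spread within each was wide. It was called with the block (log2 fold change -2.69, edgeR adjusted p = 3.89e-06) and not without it (-2.78, adjusted p = 0.118).

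Mitotic kinesins, the motors that move chromosomes and slide spindle microtubules, had the lowest median of the lists, at -2.35. All 14 lay below 0, 5 were called lower without the block and 14 with it. Kif4, a chromosome-bound motor, had 38.8, 68.5 and 50.3 CPM against 5.82, 10.3 and 8.52 CPM, and Kif18a, which limits chromosome oscillation, had 28.1, 25.4 and 17.8 CPM against 4.50, 3.09 and 3.55 CPM. In both, each shElp3 library was below each control. They kept 15.6% (Kif4) and 15.8% (Kif18a) of the control level.

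Among 32 spindle assembly and cytokinesis genes 15 were called lower, and 29 with the block, with a median of -2.20. The largest decrease of any called gene was that of Depdc1a, at 24.9, 23.6 and 14.5 CPM against 1.74, 1.31 and 2.21 CPM, which left 8.46% of control (log2 fold change -3.56 with an SE of 0.35, adjusted p = 0.0159 in edgeR). Prc1, which bundles the microtubules of the central spindle, had 173, 191 and 137 CPM against 20.6, 31.3 and 32.6 CPM and a log2 fold change of -2.57. Tacc3, a spindle protein, and Cep55, which acts in the last cut between daughter cells, changed by -2.62 and -2.39. Cdca8, of the chromosomal passenger complex, had means of 42.6 ± 2.87 and 10.2 ± 0.35 CPM (SD, n = 3) and a log2 fold change of -2.07. Kif5b, a transport kinesin of the same list, was not called (log2 fold change 0.24). Mki67, the proliferation marker, had 36.6, 526 and 424 CPM in shControl and 17.4, 73.4 and 67.8 CPM in shElp3. Its A libraries were far below B and C under both shRNAs, and it was called with the block (log2 fold change -2.22, edgeR adjusted p = 0.000127) and not without it (-2.64, 0.296).

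Kinetochore and centromere genes, which attach chromosomes to the spindle, were called lower in 11 of 36 without the block and 31 of 36 with it, with a median of -1.49. Spc24, of the NDC80 complex, had 41.4, 39.4 and 37.0 CPM against 9, 7.72 and 9.31 CPM. Its partner Ndc80 had 25.3, 34.8 and 34.02 CPM against 3, 4.63 and 4.50 CPM. The groups stood well apart for both, at log2 fold changes of -2.17 (Spc24) and -2.96 (Ndc80). Cenpa, the histone variant that marks centromeres, changed by -2.27 (edgeR adjusted p = 0.0177).

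The spindle checkpoint, APC/C and separase list was split. Its median was -0.64, with 7 of 24 genes called lower and 11 with the block. Cdc20 (4: 118432901 to 118437343), which activates the APC/C ubiquitin ligase, had 35.9, 39.2 and 32.5 CPM against 4.92, 4.16 and 4.58 CPM, and kept 12.7% of control. Fbxo5, an inhibitor of the APC/C, kept 13.9%, Mad2l1, a checkpoint protein, 30.1%, and Ube2c, the E2 enzyme of the APC/C, 19.4%. The APC/C core subunits Cdc23 (0.29) and Anapc2 (0.14) were not called. Condensin and cohesin genes with topoisomerase II were also uneven, with 5 of 18 called lower, 12 with the block, and a median of -0.82. Top2a, which untangles sister chromatids, had 433, 609 and 463 CPM against 61.2, 101 and 104 CPM (log2 fold change -2.50 with an SE of 0.31, adjusted p = 0.0187 in edgeR), and the condensin subunits Ncapg, Smc4 and Smc2 changed by -2.13, -1.91 and -2.36. Nipbl, the cohesin loader, was at 0.01.

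Genes that license and unwind replication origins had a median of -1.39, with 6 of 24 called lower and 19 with the block. Mcm6, a subunit of the replicative helicase, had 111, 242 and 193 CPM against 41.5, 47.3 and 50.3 CPM, with control A nearer to the shElp3 values than B or C were. Cdc45, which joins the helicase, was more even, at 31.5, 39.2 and 29.0 CPM against 7.44, 7.01 and 7.81 CPM. Log2 fold changes were -1.97 for Mcm6 (SE 0.32, edgeR adjusted p = 0.0397) and -2.16 for Cdc45 (SE 0.23, adjusted p = 0.0159). The licensing factor Cdt1 kept 29.8% and its inhibitor Gmnn 37.7% of the control level. The call of Cdt1 ended with upper-quartile scaling (adjusted p = 0.0545), and that of Gmnn too (0.0521). Cdt1 also missed the threshold with a minimum count of 50 (edgeR adjusted p = 0.0523) and without the 20 most abundant genes (0.0513).

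The replication fork itself showed smaller decreases. In the list of polymerases, primase, clamp and loader all 29 genes lay below 0, 6 were called lower and 23 with the block, with a median of -1.04. Pcna, the sliding clamp, had 214, 216 and 181 CPM against 83.8, 67.4 and 69.7 CPM, and Pold1, the catalytic subunit of polymerase delta, had 49.8, 77.2 and 67.2 CPM against 14.5, 16.6 and 16.1 CPM. Neither gene had overlapping groups, and they kept 36.2% (Pcna) and 24.3% (Pold1) of control. Of 15 deoxynucleotide synthesis genes 3 were called lower, and 8 with the block, with a median of -0.67. Rrm1, the large subunit of ribonucleotide reductase, had 118, 177 and 135 CPM against 49.6, 51.6 and 53.3 CPM. Its partner Rrm2, which limits the enzyme, changed more, by -2.09 against -1.48 on the log2 scale, while Rrm2b, the form used outside S phase, was not called (0.41).

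Of 42 genes of homologous recombination, the Fanconi pathway and the replication checkpoint, 5 were called lower and 27 with the block, with a median of -1.36. The Fanconi protein Fancd2 had 55.8, 83.6 and 70.4 CPM against 7.32, 10.8 and 16.4 CPM, and the checkpoint kinase Chek1 had 16.7, 27.5 and 17.5 CPM against 3.06, 4.16 and 4.89 CPM. Both were lower in each shElp3 library than in any control, with log2 fold changes of -2.60 (Fancd2) and -2.35 (Chek1). Atr, the kinase above Chek1, was not called (0.20). Chromatin assembly and DNA methylation maintenance genes had 2 of 26 called lower, and 21 with the block, and a median of -1.16, with Hmgb2 at -2.17 and the remodeler Hells at -1.63.

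Replication-dependent histone genes, which are transcribed in S phase, differed between letters. All 36 tested lay below 0, 7 were called lower, 23 with the block and 33 with letters B and C, and the median log2 difference was -0.43 in letter A, -1.72 in B and -1.95 in C. Hist1h2bb had 43.6, 103 and 92.4 CPM against 15.7, 12.4 and 12.8 CPM, and Hist1h3c had 13.0, 31.1 and 27.2 CPM against 2.76, 1.78 and 2.60 CPM. In both genes control A lay between the other controls and the shElp3 libraries. Histone genes are close copies of one another, so how reads were shared among them is uncertain for single genes. The 68 listed replication-dependent histone genes together took 0.147% of the reads in shControl A and in shElp3 A. Their share was 0.282 and 0.295% in shControl B and C, and 0.112 and 0.0832% in shElp3 B and C. These are shares of raw counts, without the TMM factors that enter the CPM and the differences within letters.

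Calls among regulators upstream of these genes differed by list. Among G1 and S phase cyclins and their kinases 2 of 10 were called lower, and 4 with the block, with a median of -0.45. Cyclin Ccnd3, which starts the inactivation of RB, had 306, 297 and 265 CPM against 85.9, 119 and 99.9 CPM, with no overlap (log2 fold change -1.51 with an SE of 0.23, adjusted p = 0.0287 in edgeR). The other D cyclin Ccnd1 was at 87.1, 203 and 186 CPM against 106, 112 and 98.4 CPM, with overlap, and was called in the fit of letters B and C (edgeR adjusted p = 0.000378). Of 20 E2F, RB, DREAM and FOXM1 genes edgeR called 0 without the block (5 lower at an unadjusted p under 0.05, 3 called lower by DESeq2), and 7 were called lower with it (E2f2, E2f7, E2f8, Foxm1, Lin54, Mybl2 and Rbl1). Foxm1, the activator of G2 and mitotic genes, had 11.2, 90.4 and 77.4 CPM against 2.46, 20.6 and 17.7 CPM. Its difference was almost the same within each letter, at -2.11, -2.13 and -2.12 on the log2 scale, although its level in A was far below that in B and C. The block fit gave an edgeR adjusted p of 4.65e-06 and the fit without it 0.404. E2f1 was at a log2 fold change of -0.12.

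CDK inhibitors, which stop the cycle, were not called higher in the fits over all 6 libraries. Of 5 tested, 0 were called by edgeR without a block (2 lower at an unadjusted p under 0.05, 1 by DESeq2), and Cdkn2c (log2 fold change -0.998, adjusted p = 0.00213) and Cdkn2d (-0.81, 0.00961) were called lower with it. The fit of letters B and C called 2 lower and 1 higher, Cdkn1a. Cdkn1a, the p53 target p21, had 198, 307 and 301 CPM in shControl and 179, 625 and 351 CPM in shElp3. The groups of Cdkn1a overlapped, and its log2 difference was -0.15 in A, 1.02 in B and 0.22 in C. Of 32 genes of p53 and its targets edgeR called 0 without the block (1 higher and 1 lower at an unadjusted p under 0.05, 1 lower by DESeq2), and 3 higher and 1 lower with it. With the block that is 9.38% higher and 3.12% lower, against 5.46 and 6.75% of all genes. The fit of letters B and C called 15 higher and 1 lower, and the list median was -0.10 in A, 0.52 in B and 0.36 in C.

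**Figure D3:**
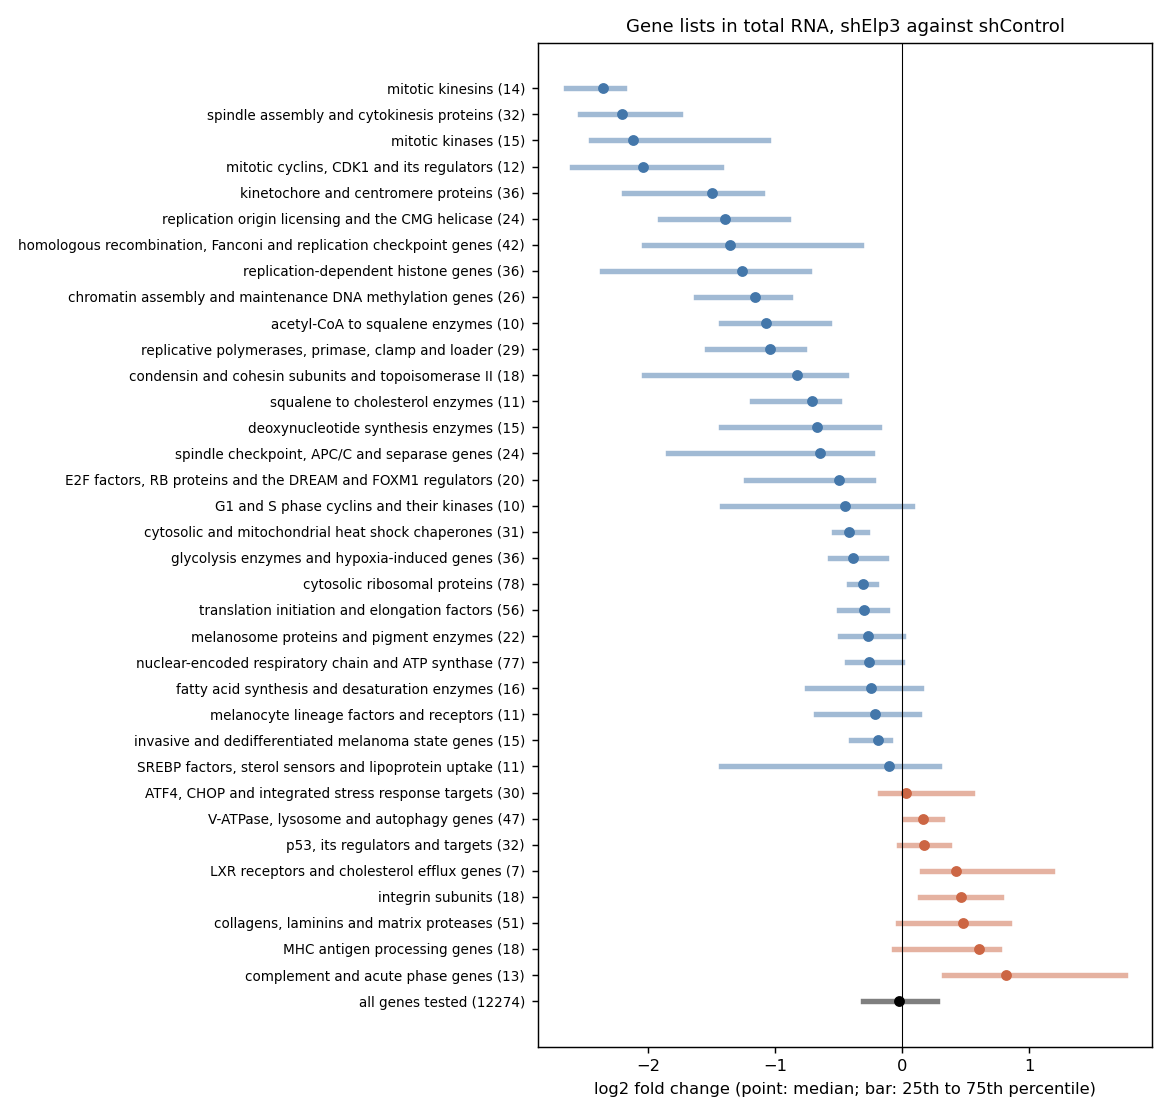
Median (point) and range from the 25th to the 75th percentile (bar) of the log2 fold changes of shElp3 against shControl (horizontal axis) in gene lists, with the number of genes tested in brackets, and in all 12274 genes (black). The kinesin (-2.35), spindle (-2.20), kinase (-2.12) and cyclin (-2.04) lists lie lowest, and the complement list lies highest, at 0.82.

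The promoter elements introduced above were counted in RefSeq windows of 300 bases, from 250 before to 50 after the start. Of the 12274 genes 9804 had a window, 12514 windows in all, and TTTGAA stood in 11.8% of them, CCAAT in 38%, both in 4.83%, an E2F-type element in 2.94% and TCACNCCAC in 1.17%. Matches of different elements shared a base in 16 windows. In 95 windows of genes called lower TTTGAA stood in 40%, CCAAT in 65.3%, both in 32.6%, an E2F-type element in 11.6% and TCACNCCAC in 1.05%. Windows of the mitotic lists (cyclins, kinases, checkpoint, kinesins, kinetochore and spindle, 125 windows) held TTTGAA in 49.6% and both elements in 39.2%. Windows of the replication lists (70) held TTTGAA in 14.3% and an E2F-type element in 21.4%. Those of the histone genes (31) held CCAAT in 83.9%, TTTGAA in 38.7% and both in 35.5%. In 29 windows of genes called higher the shares were 27.6% for TTTGAA, 34.5% for CCAAT and 0% for E2F-type elements. Over only the 250 bases before the start, the TTTGAA share fell to 25.3% in genes called lower and to 28% in the mitotic lists. Over these bases it was 24.1% in genes called higher and 10.3% in all tested, and stayed at 38.7% in the histone genes. There the genes called lower and higher had nearly the same share. A match is a description of the letters, not a bound site, and windows of the same gene can overlap.

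**Figure D4:**
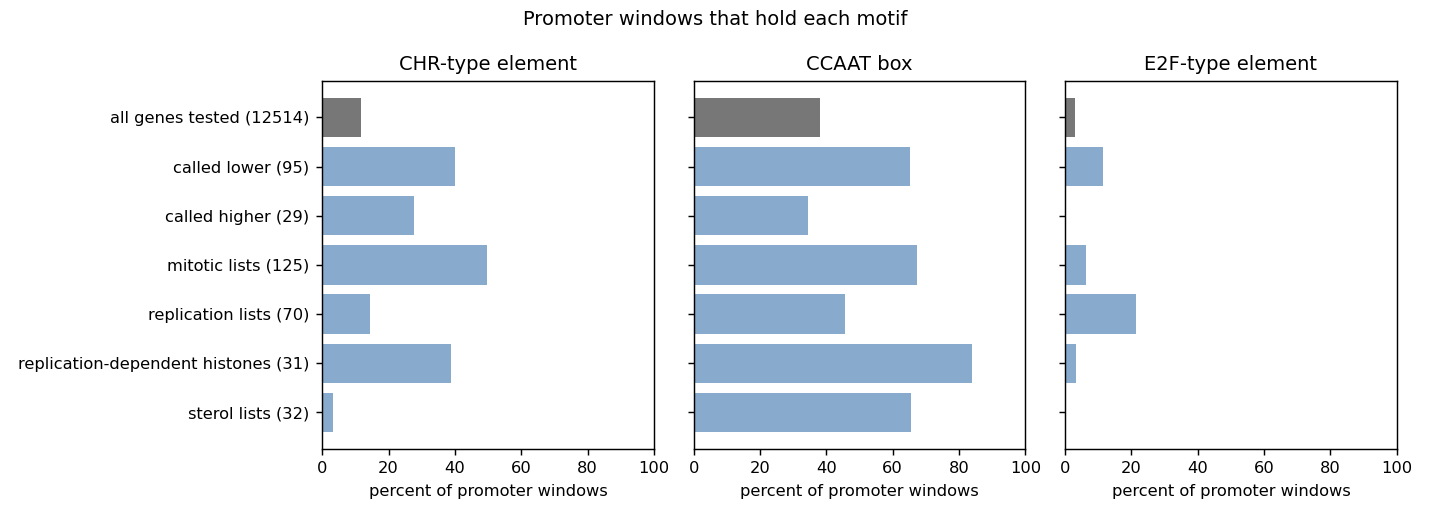
Share of RefSeq promoter windows (horizontal axes, percent) that hold TTTGAA (left, the CHR-type element), CCAAT (middle) or an E2F-type element (right), in all genes tested (grey) and in 6 sets of genes (blue), with the number of windows in brackets. The mitotic lists have TTTGAA in 49.6% against 11.8% of all windows, and the replication lists have an E2F-type element in 21.4% against 2.94%.

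Genes of cholesterol supply gave a smaller number of calls. Of 48 genes in 4 lists of SREBP factors, sterol synthesis and fatty acid synthesis 3 were called lower and 0 higher, and with the block 21 were lower and 1 higher. In all 39 of the 48 lay below 0 and 9 above it. Insig1, which holds SREBP in the endoplasmic reticulum and is itself an SREBP target, had 883, 333 and 207 CPM against 88.9, 56.4 and 57.0 CPM. Its control libraries differed widely, and it was called with the block (log2 fold change -2.58, adjusted p = 1.16e-05) and not without it (-2.81, 0.0785). The factor Srebf2 was at 120, 414 and 400 CPM against 55.0, 191 and 146 CPM, with overlap between groups and a difference within letters of -1.12, -1.11 and -1.45, and was called with the block (adjusted p = 0.000483) and in letters B and C, but not by DESeq2. Stard4, a cholesterol carrier, was called with the block (-1.58, adjusted p = 9.59e-05) and by DESeq2.

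Among the enzymes, from acetyl-CoA to squalene all 10 genes lay below 0, 2 were called lower and 7 with the block, with a median of -1.07. Hmgcs1, which makes HMG-CoA, had 140, 131 and 91.8 CPM against 47.7, 45.0 and 37.9 CPM (log2 fold change -1.47 with an SE of 0.25, adjusted p = 0.0434 in edgeR, and 0.0540 with upper-quartile scaling). Fdft1, squalene synthase, had 83.1, 77.3 and 55.1 CPM against 20.1, 26.0 and 21.9 CPM and kept 31.5% of control. Neither gene had overlapping groups. From squalene to cholesterol all 11 genes lay below 0, edgeR called 0 without the block (6 lower at an unadjusted p under 0.05, 4 by DESeq2) and 6 lower with it, and the median was -0.71. Sqle, which oxidises squalene, had 119, 119 and 107 CPM against 52.1, 53.2 and 57.9 CPM (log2 fold change -1.08, edgeR adjusted p = 0.0566 without and 0.000966 with the block).

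Fatty acid genes were mixed. Of 16 tested, 0 were called by edgeR without a block (4 lower at an unadjusted p under 0.05, 1 by DESeq2), 4 were lower with it (Elovl5, Elovl6, Fasn and Scd1) and 1 higher (Acacb), with a median of -0.24. The desaturase Scd2 had 3801, 3994 and 2819 CPM against 1443, 2055 and 2123 CPM, with no overlap, and missed the threshold in both fits (adjusted p = 0.28 and 0.0568). Of 7 genes of LXR and cholesterol efflux 6 lay above 0, with a median of 0.43. In edgeR 0 were called without the block (3 higher at an unadjusted p under 0.05, 2 by DESeq2) and 2 were higher with it. Abca1, which loads cholesterol onto lipoproteins, had 36.7, 48.6 and 71.1 CPM against 113, 126 and 157 CPM (log2 fold change 1.38 with the block, edgeR adjusted p = 0.000137, and 1.34, adjusted p = 0.103 without). The transfer protein Pltp had 89.8, 97.5 and 104 CPM against 156, 196 and 238 CPM, and neither gene had overlapping groups. Apoe, another LXR target, was at a log2 fold change of -0.03. Of 32 sterol windows 3.12% held TCACNCCAC, the 1 window being that of Hmgcs1, and 65.6% held CCAAT.

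Melanocyte genes gave 1 call. Pmel (10: 128695888 to 128720238), the fibril protein of the melanosome, had 1783, 2090 and 1911 CPM against 585, 634 and 702 CPM, and kept 33.2% of control (log2 fold change -1.59 with an SE of 0.26, adjusted p = 0.0396 in edgeR). The RefSeq span of Pmel covers the whole of Cdk2, 7114 bases, and Cdk2, the kinase of the G1 to S step, was called lower too, at 196, 223 and 141 CPM against 40.9, 47.7 and 57.5 CPM. The strand setting of the counts is not given in the sources used here, so reads of the pair may be shared. Among 129 called genes with a RefSeq position 26 overlap another tested gene, and Pmel and Cdk2 are the 2 that overlap another called one. The remaining 21 pigment genes were not called by edgeR with or without the block. DESeq2 called 2 of the list lower, Pmel and the enzyme Dct, which was at 4358, 5117 and 4717 CPM against 2506, 2520 and 2642 CPM (adjusted p = 0.241 in edgeR without the block). The fit of letters B and C gave 8 lower and 1 higher in the list.

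Of 11 melanocyte lineage genes 0 were called by edgeR without a block (2 lower at an unadjusted p under 0.05, 1 by DESeq2) and 3 were lower with it. Mitf, the master factor of the lineage, had 90.9, 263 and 214 CPM against 59.0, 90.4 and 88.1 CPM, and Pax3, which acts upstream of it, had 118, 145 and 126 CPM against 71.3, 89.0 and 74.9 CPM. The groups of Pax3 did not overlap, and those of Mitf were separated by less than 1 CPM, shControl A against shElp3 B, at block log2 fold changes of -1.15 (Mitf, adjusted p = 0.00168) and -0.73 (Pax3, adjusted p = 0.0123). Tfap2a, a neural crest factor, had 7.75, 86.9 and 74.0 CPM against 3.42, 38.4 and 25.3 CPM, so the 2 A libraries lay below all others and the groups overlapped. Sox5 and Erbb3 were not called. Of 15 ERK output genes edgeR called 3 lower with the block and 0 without it (3 lower at an unadjusted p under 0.05, 1 by DESeq2). Among them Myc, a growth factor-induced transcription factor, was at 8.42, 33.6 and 25.5 CPM against 1.86, 9.63 and 6.47 CPM. Myc overlapped between groups but differed by -2.09, -1.79 and -1.95 within the letters (block adjusted p = 5.13e-05 in edgeR, and 0.291 without the block). Vimentin (Vim), of the invasive state list, had 1483, 1487 and 1212 CPM against 396, 561 and 562 CPM, and was called lower with the block (log2 fold change -1.47, adjusted p = 0.00104), by DESeq2 and in letters B and C. In that list of 15 edgeR called 0 without the block, and 1 higher and 1 lower with it, 6.67% each, near the shares of all genes.

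Increases were spread over unlike genes. Among them was Notch3 (17: 32120820 to 32166896), a receptor of contact signalling, with 38.8, 43.3 and 68.0 CPM in shControl and 131, 217 and 228 CPM in shElp3. No library of one group reached the other, and the log2 fold change was 1.94 with an SE of 0.33 (adjusted p = 0.0455 in edgeR). In its list of 18 Notch genes the ligand Jag2 was also higher with the block (0.94, adjusted p = 0.0143) and the presenilin Psen2 lower (-0.57, 0.049), with a list median of 0.08. With the block 11.1% of the list was higher and 5.56% lower. The target gene Hes1 was not called (-1.02, adjusted p = 0.487), at 10.8, 3.67 and 3.41 CPM against 2.94, 3.57 and 2.37 CPM.

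Complement and acute phase genes had the highest list median, 0.82, with 2 of 13 called higher, 8 with the block, and 0 lower. C4b (17: 34728139 to 34743902), a complement component, had 2.68, 1.37 and 3.60 CPM against 19.5, 17.7 and 16.8 CPM, a log2 fold change of 2.81 with an SE of 0.37 (adjusted p = 0.0212 in edgeR). Lbp, which binds bacterial lipopolysaccharide, had 2.39, 1.47 and 1.57 CPM against 7.38, 6.06 and 8.28 CPM. The groups were far apart in both, and Lbp reached 398% of control. Ceruloplasmin (Cp), a copper-carrying oxidase, was at 473, 320 and 270 CPM against 1441, 770 and 1370 CPM, and was called with the block (1.74, adjusted p = 0.000357). Saa3 (2.43, 0.00121) and C3 (1.34, 0.00544) were called in the same way. C4b has a close copy in the genome, so its reads may be shared.

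Antigen presentation genes lay above 0 in 13 of 18. Of these 18, 0 were called by edgeR without a block (5 higher at an unadjusted p under 0.05, 3 by DESeq2), 8 were higher with it and 11 with letters B and C, with 0 lower, and the list median was 0.61. Cd74, which escorts MHC class II molecules to the endosome, had 47.2, 23 and 65.2 CPM against 170, 255 and 242 CPM, with no overlap, and missed the threshold (log2 fold change 2.30, adjusted p = 0.0511, and 4.7e-05 with the block). Nlrc5, which activates MHC class I genes, had 4.18, 4.12 and 4.52 CPM against 9.84, 10.6 and 8.91 CPM. The peptide transporters Tap1 and Tap2 were at 154 and 151% of control with no overlap, whereas the class I gene H2-K1 overlapped, at 99.5, 41.9 and 52.8 CPM against 123, 86.7 and 87.9 CPM. Class I genes are similar to each other, so single values of H2-K1 and H2-D1 are uncertain. Leukocytes also carry Cd74. The summed leukocyte markers were 22.6, 7.97 and 10.6 CPM in shControl and 12.5, 10.3 and 6.63 CPM in shElp3, and their part in this result was not tested. Of 37 interferon response genes edgeR called 2 higher and 2 lower with the block and 0 without it (2 higher and 2 lower at an unadjusted p under 0.05, 0 by DESeq2). With the block this was 5.41% each, near the 5.46% higher and 6.75% lower of all genes.

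In the list of collagens, laminins and matrix proteases 3 of 51 were called higher, and with the block 9 were higher and 1 lower, with a median of 0.48. Mmp28, a secreted metalloproteinase, had 2.68, 2.38 and 3.41 CPM against 13.1, 15.6 and 18.3 CPM (log2 fold change 2.47 with an SE of 0.28, adjusted p = 0.0172 in edgeR). Mmp15, a membrane-bound one, had 7.98, 8.34 and 11.8 CPM against 25.7, 45.4 and 33.9 CPM, and the basement membrane collagen Col18a1 had 0.746, 1.01 and 1.11 CPM against 4.50, 6.18 and 6.47 CPM. All 3 genes had groups far apart. Fibroblast markers summed to 41.5 to 72.1 CPM in shControl and 72.7 to 122 CPM in shElp3, with Dcn and Fap at 0, and 3 of the 4 tested were higher with the block. Their part in the matrix result was not tested. Of 18 integrin subunits 3 were higher with the block (Itga2, Itga2b and Itga8) and 0 without it (4 higher and 1 lower at an unadjusted p under 0.05, 1 higher by DESeq2).

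The other 6 increases called without the block at a mean log2 CPM of 3 or more belong to no list, apart from Ggt1. P2rx3, an ATP-gated channel, had 2.68, 4.58 and 7.93 CPM against 24.7, 36.7 and 50.3 CPM. Sucnr1, the succinate receptor, had 3.88, 3.94 and 4.24 CPM against 30.4, 13.1 and 30.2 CPM, and Ggt1, which breaks down extracellular glutathione, had 4.55, 3.48 and 5.26 CPM against 21.7, 16.3 and 17.8 CPM. Sucnr1 was lower in shElp3 B than in the other shElp3 libraries and still above every control. Tmem150a had 8.28, 7.33 and 9.77 CPM against 27.5, 26.4 and 27.4 CPM, and Hemk1 and Neurl3 reached 308 and 273% of control. Among the lower expressed genes called higher, Otog reached 17.6, 20.3 and 27.8 CPM from 0.671, 1.28 and 3.69 CPM, and the adhesion and surface proteins Cdh15, Ptk7 and Mmrn2 reached 390, 291 and 534% of control. Dthd1, Nfam1 and Rspo3 were at 0.277 CPM or less in every control library, and at 1.58 (Dthd1), 1.54 (Nfam1) and 1.08 CPM (Rspo3) or more in every shElp3 library.

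Outside the lists, 15 named genes had the largest decreases. Neil3, a DNA glycosylase, had 15.5, 22.2 and 16.04 CPM against 1.86, 2.97 and 3.79 CPM, and Iqgap3, a scaffold protein, 39.1, 63.4 and 48.9 CPM against 5.88, 9.39 and 11.9 CPM. They kept 16% (Neil3) and 17.9% (Iqgap3) of control, with no overlap. Stmn1, which destabilises microtubules, was even within groups, with 173, 180 and 156 CPM against 49.98, 46.3 and 53.4 CPM (log2 fold change -1.76 with an SE of 0.20, adjusted p = 0.0172 in edgeR). Several others act at the spindle or the centriole: Knstrn (-1.99), Spdl1 (-1.84), Haus4 (-1.50), Poc1a (-1.91) and Aunip (-2.33). Mnd1 (-2.59) acts in meiotic recombination and Mxd3 (-2.16) is a partner of MAX. Enpp2, autotaxin, which makes lysophosphatidic acid, had 34.96, 75.2 and 78.7 CPM against 7.02, 13.3 and 13.8 CPM and kept 18% of control. Arhgef39 (-2.47), Efcab11 (-2.03), Uchl5 (-1.56) and Arhgap19 (-1.47) complete the 15, and the call of Uchl5 ended with upper-quartile scaling (edgeR adjusted p = 0.0555).

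Of 30 integrated stress response genes 0 were called by edgeR without a block (7 higher at an unadjusted p under 0.05, 2 by DESeq2) and 6 were higher with it (Chac1, Nupr1, Pycr1, Slc1a5, Slc7a11 and Trib3), though the list median was 0.03. The cystine transporter Slc7a11 had 45.9, 57.6 and 78.5 CPM against 148, 102 and 155 CPM, and Pycr1, of proline synthesis, had 26.4, 25.5 and 30.2 CPM against 50.3, 63.9 and 52.1 CPM. Neither overlapped between groups. Of 31 heat shock genes edgeR called 0 without the block (3 lower at an unadjusted p under 0.05, 2 by DESeq2) and 3 lower with it, among them the chaperone Hsph1 at 49.2, 72.8 and 116 CPM against 22.9, 35.1 and 31.0 CPM. Those 3 are 9.68% of the list, where the block fit called 6.75% of all genes lower. In 29 NRF2 and glutathione genes 4 were higher (13.8%), Ggt1 included, and 1 lower (3.45%) with the block.

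Of 56 translation initiation and elongation factors edgeR called 7 lower with the block and 0 without it (5 lower at an unadjusted p under 0.05, 0 by DESeq2), with a median of -0.30. Eif3e, a subunit of initiation factor 3, had 860, 301 and 239 CPM against 248, 150 and 143 CPM, with overlap. Of 78 ribosomal protein genes edgeR called 0 with the block, without it and in letters B and C alone (0 at an unadjusted p under 0.05, 0 by DESeq2), and their median log2 difference was -0.62 in A, -0.01 in B and 0.08 in C. Aminoacyl-tRNA synthetases gave 1 call of 37 with the block (2.7%) and 0 without it (2 higher at an unadjusted p under 0.05, 1 by DESeq2). Wars, which charges tryptophan tRNA, rose in the block fit, from 152, 162 and 203 CPM to 421, 363 and 336 CPM (log2 fold change 1.13, adjusted p = 0.00195). Of the 11 enzymes of wobble uridine modification beyond Elongator 1 was higher with the block, Mocs3 (0.94, edgeR adjusted p = 0.0492), and 0 without it (1 higher at an unadjusted p under 0.05, 0 by DESeq2). That 1 is 9.09% of the list.

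**Figure D5:**
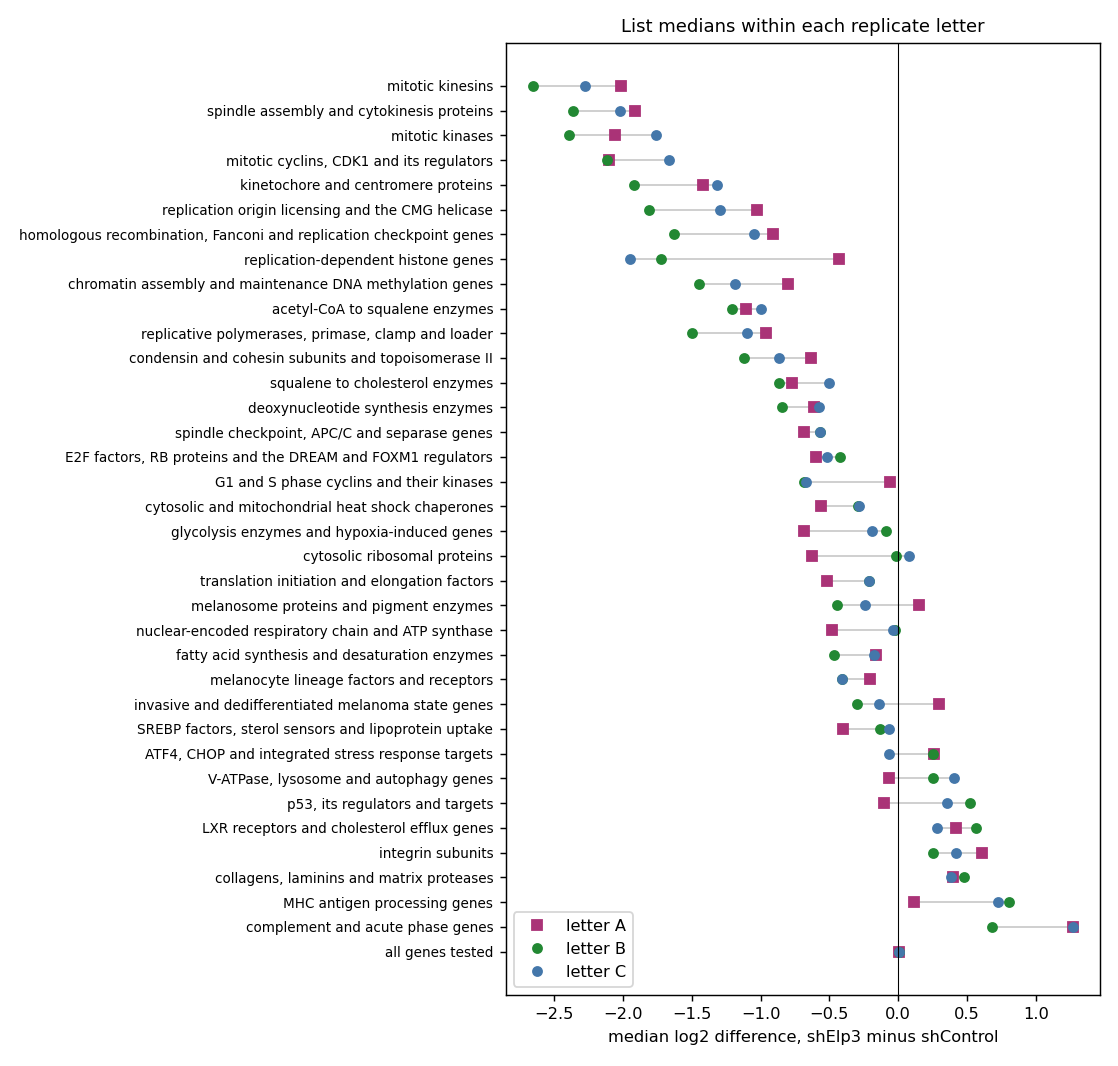
Median log2 difference of CPM between shElp3 and shControl (horizontal axis) within letter A (purple squares), B (green circles) and C (blue circles) for the same gene lists and for all genes tested. Kinesin, spindle, kinase, cyclin and kinetochore lists lie below -1 in every letter, while histone genes lie at -0.43 in A and -1.95 in C.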

How the data were processed

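The authors deposited raw whole-number counts per gene for 12 libraries, and the 6 total RNA columns were used. The tools named in the submitters' processing notes are HTSeq, TopHat2 2.1.1, Bowtie and bcl2fastq, and the build is mm10. Annotation and strandedness of the counting: not given in the sources used here, so reads of antisense, overlapping or near-identical genes may be mixed.

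Genes were kept with filterByExpr (minimum count 10), libraries were scaled by TMM, and shElp3 was tested against shControl by the quasi-likelihood test of edgeR 4.0.16 in R 4.3.3. Adjusted p-values are Benjamini-Hochberg values over every gene that passed the filter, and the threshold was 0.05. The SE is the size of the log2 fold change divided by the root of F. Log2 differences within a letter use a prior count of 2. Alternatives were the letter as a block, DESeq2 1.42.0, limma voom 3.58.1 with quality weights, other scalings and filters, letters B and C only, and leaving out each library. The functions were run on simulated counts with set changes and no difference between letters, so that check does not bear on the choice of block.

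The comparison, the 55 gene lists and the promoter elements were chosen with earlier results of these data known, and the patterns for integrins and translation factors were corrected after the values were seen, to drop genes of other families. Lists are described by counts and medians, with no test of the list. Genes were named by rule: Elp3, called increases whose mean log2 CPM reached 3, the 15 largest called decreases in no list, up to 5 called genes of a list by adjusted p, and up to 4 genes of a list that was called only with the block or not at all. Others, such as Ccnd1, Cdkn1a, E2f1, Foxm1, Mki67, Plk1 and the genes called higher at lower levels, were chosen after their values were seen.

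The labels' letters pair the samples in the fit with the block and in the differences within a letter, but not in the fit without a block. Across genes, deviations from the group means correlated at 0.807 (A), 0.423 (B) and 0.582 (C) between libraries of the same letter, all over 0.1. The crossed pairs of B and C gave 0.688 and 0.579, so the check sets A apart and does not show B and C to be separate pairs. Promoter windows and gene positions are RefSeq's on GRCm38.p6, the build that mm10 names, and 24300 of 24421 symbols were matched. The counts' depth limits genes near the filter, where 1 library may hold few reads. Some genes that these rules would name are not reported here.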

Additional observations from a re-analysis of the deposited data

How the results depend on the processing

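None of the 135 named called genes changed direction under the alternatives run, but calls depended on the fit. With the replicate block edgeR called 1499 genes (670 higher, 829 lower), with at least 1 called gene in 49 lists against 22 without the block, and Elp3 passed (log2 fold change -1.07, adjusted p = 0.000977). DESeq2 called 652 (231 higher, 421 lower; 40 lists; Elp3 -1.10, adjusted p = 0.000289), limma voom with quality weights 1967 (973 higher, 994 lower; 49 lists; Elp3 -0.998, adjusted p = 0.000992), and letters B and C alone 2377 (1090 higher, 1287 lower; 50 lists; Elp3 -1.01, 0.000173). Leaving out 1 library gave 0 to 540 genes (0 to 167 higher, 0 to 373 lower), 0 to 38 lists, and Elp3 between -1.16 and -0.93. The 540 are without shControl A, where Elp3 passed (adjusted p = 0.0429). Leaving out any 1 of the remaining 5 libraries gave 0. The cause was not tested. The share of lower genes among the calls was 80.7% in the fit over all 6 libraries, 55.3% with the block, 64.6% with DESeq2 and 50.5% with limma voom. With DESeq2's size factors edgeR called 145 genes, with upper-quartile scaling 129, with no filter 203, with a minimum count of 50 137 and without the 20 most abundant genes 140. Of the 135 calls 12 ended with upper-quartile scaling, namely Cdt1, Dut, Gmnn, Hells, Hmgcs1, Mastl, Mcm8, Ncaph, Pola1, Psmc3ip, Uchl5 and Zfp101. The call of Cdt1 also ended with a minimum count of 50 and without the 20 most abundant genes.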
